A study of Mus musculus with 6 samples.

Results

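The 9 genes described here are Sgk1, Akt1, Akt2, Pik3cd, Pik3r1, Pik3ip1, Tsc1, Tsc22d3 and Txnip. They code for kinases of the phosphoinositide 3-kinase (PI3K) pathway, a regulatory subunit, proteins that restrain the pathway and, in Txnip, an AKT substrate. The genes were taken by name, as every non-control probe on the array that carried one of these gene names. That gave 22 probes of the 41174 on the array, for 9 of its 28090 gene names. Both RNAs on every array came from C57BL/6J spleen, from CD4 T cells that had been stimulated with PMA, a phorbol ester, together with ionomycin, a calcium ionophore. One RNA was from cells that also received vasoactive intestinal peptide (VIP), a neuropeptide that acts through cAMP-raising receptors, and the other from cells without it, which served as the control. Each of 6 two-colour arrays carried 1 VIP-treated and 1 untreated RNA, with VIP in the red dye Cy5 on replicates 1, 3 and 5 and in the green dye Cy3 on replicates 2, 4 and 6. Per the labels, the mice were males and females of 6 to 32 weeks, 5 to 10 spleens were pooled per sample, and anti-CD4 magnetic beads were used to isolate the cells. No source used here gives the VIP dose or the time of treatment.

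PI3K turns a membrane lipid into a second messenger that recruits the kinase PDK1 and its targets AKT and SGK. AKT and SGK phosphorylate the FOXO transcription factors, which then leave the nucleus, and AKT releases mTORC1 from the TSC1-TSC2 brake. In T cells the pathway carries signals from the antigen receptor and from CD28 to growth and glucose uptake, and naive cells keep it low.

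The probes whose readouts matter most below are shown first, so that it can be seen which piece of each transcript was measured. Each array probe is a designed DNA of 60 bases in the sense of the transcript, written 5′ to 3′ in lower case as in the scanner files. Probes of the coding region are given whole. Of the others the first 30 bases are given.
Sgk1, A_51_P118237, first 30 bases: cagttgtcagtcaaagccgttggtgttttc
Tsc22d3, A_52_P600518, first 30 bases: atgactgttcctatgaagaagccacttgtg
Tsc22d3, A_51_P235816, first 30 bases: ttcttttttaagttcttgtggggaaacttt
Tsc22d3, A_51_P235821, first 30 bases: gtgctgactacatagaatggggttgagaga
Txnip, A_51_P438805, first 30 bases: ctaaggtgatgttcttagcactttagcttg
Pik3r1, A_51_P511236, first 30 bases: atggtgcttgttaacgctttctgaagcttt
Pik3r1, A_52_P407239, whole: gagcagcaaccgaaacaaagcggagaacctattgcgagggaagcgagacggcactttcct
Pik3r1, A_52_P307938, whole: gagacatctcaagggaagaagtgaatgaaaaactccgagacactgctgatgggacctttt
Txnip, A_52_P420792, whole: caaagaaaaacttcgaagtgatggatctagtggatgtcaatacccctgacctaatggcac
On mm9, the build of the files, the Sgk1 probe lies at chr10:21719390-21719449. The 3 Tsc22d3 probes lie at chrX:137074951-137075010, chrX:137074267-137074327 and chrX:137074393-137074452, so that the farthest from the brightest starts 558 bases from it. The Pik3r1 probes A_51_P511236, A_52_P407239 and A_52_P307938 lie at chr13:102454406-102454465, chr13:102456208-102456267 and chr13:102459406-102460448. The last spans 1043 bases of the genome with 60 bases of sequence and thus lies over an exon junction, as does the whole Txnip probe, at chr3:96363085-96363259, with a span of 175 bases. The other Txnip probe lies at chr3:96365147-96365206. The exon and untranslated region of each remaining probe were not analysed here.

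Replicate 5 stood apart before any result was drawn. Its VIP channel and its untreated channel differed in sex-linked transcripts, with a log2 ratio of 4.08 for Ddx3y, 4.18 for Eif2s3y and -3.29 for Xist, whereas these ratios ranged from -0.34 to 0.46 on the other 5 arrays. Outlier flags left out 13.5% of its spots, against 0.57% to 4.4% on the others. Each call is therefore also given without it, and so is every probe whose ratio it turned or moved most. Between 56.9% and 88.5% of the spots of a channel were well above background, except on replicate 6, with 99.0% and 99.9%. On that array the flag hardly parts dim spots from bright ones. The 3 slides carried 1 array of each dye orientation, always at the same 2 positions, so that slide position and dye orientation cannot be told apart. All 12 T cell markers, Cd4 and Cd3e among them, were bright enough to be tested. Cd4 and Cd3e were the dimmest of these 12, at mean log2 intensities of 8.06 and 7.80. All 10 B cell, 9 monocyte, 7 NK, 7 dendritic and 2 CD8 T cell markers were tested too, so that the arrays do not show how pure the CD4 cells were. Between VIP and untreated cells none of the B cell markers passed the test, and Cd4 (0.04) and Cd3e (0.05) did not. Of 12 T cell markers 3 rose, among them Cd28 (0.28) and Cd2 (0.22), and of 9 monocyte markers 1 rose, Cd14 (0.57); the markers named here as risen were chosen after their values were seen. No marker of CD8 T, NK, dendritic, neutrophil or erythroid cells passed. The median log2 ratio of the T cell list was 0.05 and its summed linear intensity ranged from 260778 to 462929 with VIP and from 259721 to 470764 without, and the part of these markers in the results was not tested. In bulk RNA, fewer cells of a type and less RNA per cell cannot be told apart.

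Of the 22 probes, all of which were bright enough to be tested, 5 were higher with VIP and none was lower (limma, Benjamini-Hochberg adjusted p under 0.05 over 33502 probes). Those 5 make up 22.7% of the 22; over all probes 1.6% were called higher, 0.537% lower and 2.13% either way. They belong to 3 genes: Tsc22d3 with 2 of its 3 probes, Pik3r1 with 2 of its 4 and Sgk1 with 1 of its 2. When each gene was read from its brightest probe alone, 1 of 9 genes was called higher, Sgk1, and none lower, beside 1.6% of all genes called higher and 0.548% called lower. Over all genes, 2.14% were called either way. Without replicate 5 the counts were 7 probes and 3 genes, with none lower, but 840 of all probes were then called higher in place of 535. The genes were chosen with earlier results of these data known, so these shares describe the list and are no test of it.

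**Figure D1:**
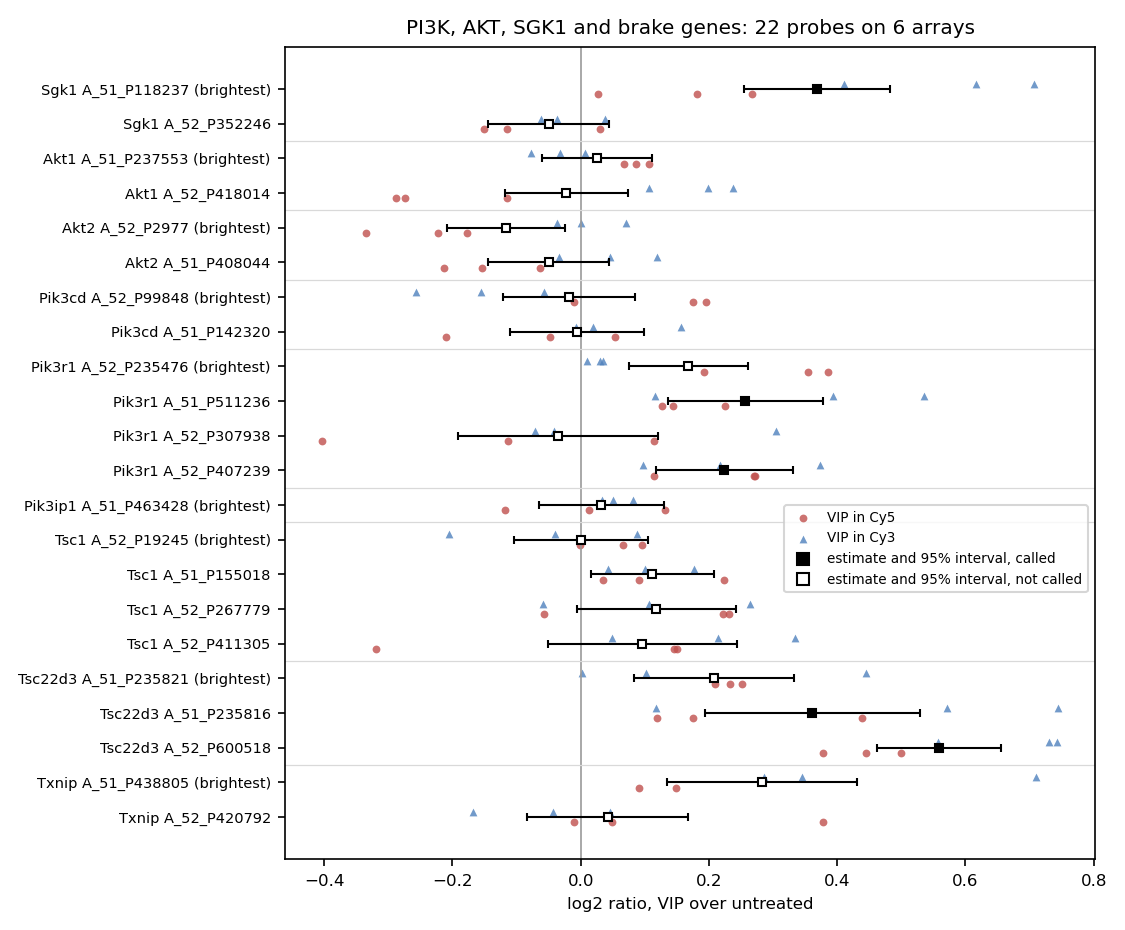
Log2 ratio of VIP over untreated for the 22 probes of the 9 genes. Red points are the 3 arrays with VIP in Cy5, blue triangles the 3 with VIP in Cy3, and squares with bars the limma estimate with its 95% interval, filled where the adjusted p is under 0.05; the 5 filled squares are probes of Sgk1, Pik3r1 and Tsc22d3, and that of Tsc22d3 A_52_P600518 is the highest, at 0.56.

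Among the kinases, Sgk1 rose with VIP and the AKT genes were not called. SGK1 is a relative of AKT that responds to PI3K through PDK1 and mTORC2 and whose transcript is known for fast induction by hormones and stress. Its normalized log2 intensity at A_51_P118237 ran from 12.47 (median 12.97) to 13.39 without VIP and from 12.60 (median 13.48) to 13.57 with it, so that the ranges overlapped between arrays. Within the arrays, the log2 ratio of VIP over untreated was 0.27, 0.18 and 0.03 on the 3 arrays with VIP in Cy5 and 0.41, 0.62 and 0.71 on the 3 with VIP in Cy3. All 6 arrays were thus above 0, and the Cy3 arrays were all higher than the Cy5 arrays. The fit took that dye effect (-0.21) out and gave a log2 ratio of 0.37 ± 0.051 (SE, n = 6 arrays, 95% interval 0.25 to 0.48), a level 1.29-fold higher (1.19 to 1.40), with an adjusted p of 0.00433 in limma. Within the 3 slides, where both orientations are balanced, the ratio was 0.34, 0.40 and 0.37. Without replicate 5, the array with the lowest ratio, it was 0.40 (adjusted p = 0.000848 in limma).

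The Sgk1 call was lost when no dye intercept was fitted (limma adjusted p = 0.119), with median centring in place of loess (0.0608), with a normexp offset of 0 (0.0741) with the log ratios of the scanner software or of the authors' series table (0.130 each) and with unpaired channels (1.00), while the log2 ratio stayed between 0.34 and 0.44 under all 22 alternatives. The other Sgk1 probe, A_52_P352246, starts 100840 bases away at chr10:21618550-21618609 and carries the name of a cDNA clone. It was well above background on 2 arrays with VIP and 4 without, and its log2 ratio was -0.05 ± 0.042. A probe this dim says little about a change.

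The 3 genes whose ratios over the 6 arrays, dye effects removed, lay nearest to those of Sgk1 among 18358 genes were Ptpn4, a tyrosine phosphatase (root mean square difference 0.033), a transcript named only by an EST, and Rgs1, which speeds the turn-off of G protein signals (0.071). Their log2 ratios were 0.35, 0.38 and 0.33, and lie near that of Sgk1 because the genes were chosen by that distance.

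AKT1 and AKT2 are the kinases that PI3K is best known for. The bright Akt1 probe A_51_P237553, at chr12:113892079-113892138, was printed as 10 spots per array and is the most precisely measured of the 22. On replicate 5 the outlier flags left only 3 spots of this probe. Its level ran from 13.24 (median 13.55) to 15.07 without VIP and from 13.35 (median 13.54) to 15.14 with it. Both of the highest levels were on replicate 5. Its log2 ratio was 0.09, 0.11 and 0.07 with VIP in Cy5 and -0.03, 0.01 and -0.08 with VIP in Cy3, and its spots within an array had an SD between 0.024 and 0.063. The 3 arrays with VIP in Cy5 were above 0, and of those with VIP in Cy3 1 was just above 0 and 2 were below it. The fitted log2 ratio was 0.03 ± 0.039, and its 95% interval of -0.06 to 0.11 spans levels from 0.96-fold to 1.08-fold of the untreated one. The second Akt1 probe, A_52_P418014, which starts just before the start codon, gave -0.02 ± 0.043.

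Akt2 had the lowest ratio of the 22 probes. At A_52_P2977, chr7:28423859-28423918, its level ran from 10.76 (median 11.38) to 11.51 without VIP and from 10.72 (median 11.12) to 11.51 with it. The log2 ratio was -0.33, -0.18 and -0.22 with VIP in Cy5 and 0.07, 0.00 and -0.04 with VIP in Cy3. With the dye effect removed it was below 0 on 6 of 6 arrays, and the fit gave -0.12 ± 0.042 (95% interval -0.21 to -0.02). Its p was 0.0178 before adjustment and 0.240 after it in limma, so that it was not called. The other Akt2 probe, A_51_P408044, gave -0.05 ± 0.042.

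Of the PI3K subunits, the regulatory subunit gene Pik3r1 was called higher at 2 of its 4 probes, and the catalytic subunit gene Pik3cd was called at neither of its probes. Pik3r1 codes for p85 alpha and its shorter forms, which hold the catalytic subunit in check until their SH2 domains bind phosphotyrosine. At A_51_P511236 its level ran from 8.46 (median 9.16) to 9.66 without VIP and from 8.999 (median 9.456) to 9.77 with it. The log2 ratio was 0.13, 0.14 and 0.22 with VIP in Cy5 and 0.39, 0.12 and 0.54 with VIP in Cy3, all above 0. The fit gave 0.26 ± 0.054, 1.19-fold higher, with a limma adjusted p of 0.0394. At A_52_P407239 the ratios were 0.27, 0.27 and 0.11 with VIP in Cy5 and 0.37, 0.22 and 0.10 with VIP in Cy3. The fit gave 0.22 ± 0.048, 1.17-fold higher, with an adjusted p of 0.0419 in limma. Both estimates were above 0 on 6 of 6 arrays and near the threshold.

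The brightest Pik3r1 probe, A_52_P235476 at chr13:102451558-102451617, was also above 0 on 6 of 6 arrays, at 0.17 ± 0.042, but was not called (limma adjusted p = 0.0822). Without replicate 5 it was 0.20 with an adjusted p of 0.0286 in limma, and the calls of A_51_P511236 (0.0411) and A_52_P407239 (0.0167) were kept. The probe A_52_P307938, shown above and lying over an exon junction, differed from these. Its log2 ratio ran from -0.40 on replicate 5 to 0.30 on replicate 2, and its estimate was -0.04 ± 0.071 (adjusted p = 0.905 in limma). With the dye effect left in, it was below the brightest probe on 5 of 6 arrays (mean difference -0.20, exact two-sided sign-flip p = 0.188). With dye effects removed, it was at 0.213 on replicate 1 and 0.206 on replicate 2. The brightest probe was then at 0.212 and 0.177 on these, and thus not above it. A difference between the Pik3r1 probes was therefore not shown. Without replicate 5 the estimate of A_52_P307938 turned to 0.03.

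The calls of the 2 Pik3r1 probes were lost in most fits on fewer arrays, while their ratios stayed above 0. When each array was left out in turn, A_51_P511236 kept its call in 2 of 6 fits (limma adjusted p 0.0167 to 0.147) and A_52_P407239 in 1 of 6 (0.0167 to 0.181), with ratios of 0.21 to 0.31 and 0.19 to 0.26. The call of A_52_P407239 was kept only without replicate 5, and that of A_51_P511236 without replicate 4 or 5.

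Pik3cd codes for p110 delta, the catalytic subunit that dominates in lymphocytes. At A_52_P99848, chr4:149023282-149023341, its level ran from 12.71 (median 13.01) to 13.53 without VIP and from 12.58 (median 12.96) to 13.70 with it. The log2 ratio was -0.01, 0.17 and 0.20 with VIP in Cy5 and -0.16, -0.06 and -0.26 with VIP in Cy3. The sign followed the dye on all but 1 array, and the fit gave -0.02 ± 0.046 (95% interval -0.12 to 0.08). The second probe, A_51_P142320, gave -0.01 ± 0.047. The direction of both was unstable and turned under some alternatives, so that no direction is given.

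Of the brakes on the pathway, Tsc22d3 had the largest ratio of all 22 probes. It codes for GILZ, the glucocorticoid-induced leucine zipper, which is induced by glucocorticoids and by FOXO factors and restrains NF-kappa B, AP-1 and Ras-PI3K signals in T cells. At A_52_P600518 its level ran from 10.01 (median 10.31) to 10.64 without VIP and from 10.75 (median 10.87) to 11.14 with it. Every VIP level was above every untreated level, and of the 22 probes this was true of this one only. The log2 ratio was 0.45, 0.50 and 0.38 with VIP in Cy5 and 0.73, 0.56 and 0.74 with VIP in Cy3. The fit gave 0.56 ± 0.043 (95% interval 0.46 to 0.66), a level 1.47-fold higher (1.38 to 1.57) on 6 of 6 arrays, with a limma adjusted p of 0.000191. Its p-value was the 17th smallest of the 33502. Within the 3 slides the ratio was 0.59, 0.53 and 0.56.

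Tsc22d3 lies on the X chromosome, and the RNAs of replicate 5 differed in sex-linked transcripts. Without replicate 5 its ratio at A_52_P600518 was 0.57 (limma adjusted p = 3.13e-05), as large as with it. The call was kept in 20 of 21 alternatives that tested the probe, at log2 ratios of 0.54 to 0.60. It was lost only in the fit that ignored which channels shared an array, where 3 of all probes were called.

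The other Tsc22d3 probes had lower ratios. At A_51_P235816 the level ran from 9.21 (median 9.80) to 10.46 without VIP and from 9.93 (median 10.08) to 10.70 with it, and the log2 ratio was 0.17, 0.12 and 0.44 with VIP in Cy5 and 0.74, 0.12 and 0.57 with VIP in Cy3. All 6 were above 0, and the fit gave 0.36 ± 0.076, 1.28-fold higher, with a limma adjusted p of 0.0375. That call was kept in 2 of 6 fits with an array left out, without replicate 4 and without replicate 5 (adjusted p 0.00878 to 0.151). At the brightest probe, A_51_P235821, the ratio was 0.21, 0.23 and 0.25 with VIP in Cy5 and 0.45, 0.00 and 0.10 with VIP in Cy3. The fit gave 0.21 ± 0.056 (limma adjusted p = 0.110), above 0 but not called, and 0.20 without replicate 5. With the dye effect left in, the ratio of A_52_P600518 was above that of the brightest probe on 6 of 6 arrays, by a mean of 0.35 (exact two-sided sign-flip p = 0.0313, adjusted 0.203 over 13 pairs of a brightest and another probe of the same gene). That p is the smallest which 6 arrays allow and does not pass adjustment.

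**Figure D2:**
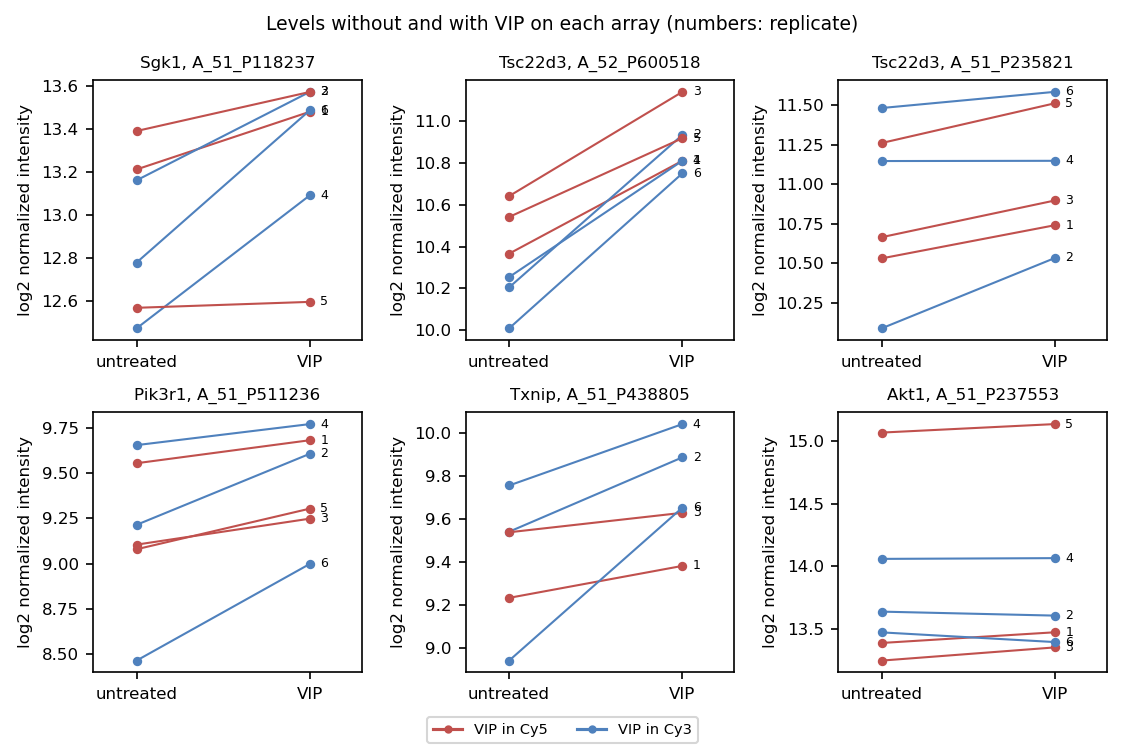
Normalized log2 intensity without and with VIP for 6 probes, with 1 line per array and the replicate number at its right end, red for VIP in Cy5 and blue for VIP in Cy3. At Tsc22d3 A_52_P600518 the VIP levels (10.75 to 11.14) all lie above the untreated levels (10.01 to 10.64), at Sgk1 the ranges overlap although each line rises, and at Akt1 the lines are near level.

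Txnip codes for a protein that binds thioredoxin and removes glucose transporters from the cell surface, and AKT is known to phosphorylate it. At A_51_P438805 its level ran from 8.94 (median 9.54) to 9.76 without VIP and from 9.38 (median 9.65) to 10.04 with it, on 5 arrays, since the spot of replicate 5 carried an outlier flag and was left out. The log2 ratio was 0.15 and 0.09 with VIP in Cy5 and 0.35, 0.29 and 0.71 with VIP in Cy3, above 0 on 5 of 5 arrays. The fit gave 0.28 ± 0.066 (limma adjusted p = 0.0695), which was not called. It was called without replicate 5 (adjusted p = 0.0224 in limma, with its own values unchanged) and with the flagged spot kept (0.0347). The whole probe A_52_P420792 shown above gave 0.04 ± 0.057, with a range of -0.17 on replicate 6 to 0.38 on replicate 5. With the dye effect left in, it was lower than the other on 5 of 5 arrays (exact two-sided sign-flip p = 0.0625, the smallest that 5 arrays allow). The dye effects of the probes were 0.10 and -0.16, so that dye enters this difference. With dye effects removed, replicate 4 was at 0.14 at A_52_P420792 and at 0.12 at the other probe. Without replicate 5 the estimate of A_52_P420792 turned to -0.02, and no direction is given for Txnip over both probes.

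Pik3ip1 codes for a transmembrane protein that binds p110 and inhibits PI3K in resting T cells. Its probe, at chr11:3242107-3242166, had a level from 8.84 (median 9.42) to 9.81 without VIP and from 8.87 (median 9.42) to 9.86 with it. Its log2 ratio was -0.12, 0.13 and 0.01 with VIP in Cy5 and 0.05, 0.08 and 0.03 with VIP in Cy3. The fit gave 0.03 ± 0.044, with a 95% interval of -0.07 to 0.13.

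Tsc1 codes for hamartin, which stabilizes TSC2 in the complex that keeps Rheb and mTORC1 off. None of its 4 probes was called. The brightest, A_52_P19245 at chr2:28545982-28546041, gave 0.00 ± 0.047 with a 95% interval of -0.10 to 0.10. The other 3 gave 0.11 ± 0.043, 0.12 ± 0.056 and 0.10 ± 0.066. Of these, A_51_P155018 was above 0 on 6 of 6 arrays with an adjusted p of 0.290 in limma, and A_52_P411305 ran from -0.32 on replicate 5 to 0.33 on replicate 6. Without replicate 5 the estimate of A_52_P411305 was 0.17 and was not called (adjusted p = 0.0955 in limma). Leaving that array out called none of the Akt1, Akt2, Pik3cd, Pik3ip1 and Tsc1 probes, and their brightest probes then stood at 0.03, -0.12, -0.04, 0.03 and 0.01.

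The rest of the pathway was read from lists of other genes, each from its brightest probe, beside a median log2 ratio of 0.00 over all genes tested, of which 1.6% were called higher and 0.548% lower. A single call in a list of about 10 genes is a small count to read against these shares. None of 11 other PI3K subunits and adaptors was called (median 0.02), with Pik3r5, a regulatory subunit of p110 gamma, at 0.16 and Pik3ca, the p110 alpha subunit, at -0.13, below 0 on 6 of 6 arrays but not called. Over their probes Pik3r5 ran from 0.01 to 0.16 and Pik3ca from -0.13 to -0.12. Among 4 other AKT, SGK and PDK1 kinases none was called (median 0.10), with Sgk3 at 0.15, Pdpk1 at 0.14 and Sgk2 at -0.02; over their probes Sgk3 ran from -0.07 to 0.15 and Pdpk1 from -0.01 to 0.14. None of 9 mTOR complex genes (median -0.02) and none of 8 phosphatases of the lipid or of AKT (median 0.08) passed.

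Among 12 other genes of the TSC-Rheb step and of the brakes on mTORC1, 1 rose, none fell and 11 did not pass (median 0.02). The one was Sesn3, a sestrin that FOXO factors are known to induce and that holds mTORC1 down, at 0.40 ± 0.049 (6 of 6 arrays, limma adjusted p = 0.00206), and 2 of its 3 probes were called. Ddit4, which activates the TSC complex under stress, was at 0.27 and was not called (adjusted p = 0.180 in limma). Of 12 relatives and partners of Txnip, namely alpha-arrestins, thioredoxins and Mondo factors, 1 rose (median 0.01). It was Arrdc3, an alpha-arrestin that acts on membrane receptors, at 0.54 ± 0.065 (6 of 6 arrays, limma adjusted p = 0.00201). The 3 other TSC22 family genes were not called, with Tsc22d2 at 0.22 at its brightest probe but -0.25 at its other probe, Tsc22d1 at 0.18 (adjusted p = 0.0739 in limma) and Tsc22d4 at 0.08.

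Of 14 substrates of AKT, SGK and mTOR none was called (median 0.01), and the highest was Foxo1 itself at 0.21 ± 0.049 (6 of 6 arrays, limma adjusted p = 0.0665). Of 11 FOXO targets in T cells 2 rose and none fell (median 0.05): the homing receptor Ccr7 at 0.82 ± 0.083 and S1pr1, the receptor for exit from lymph nodes, at 0.27 ± 0.050. The interleukin receptor chain Il7r was at 0.22 and did not pass (adjusted p = 0.0859 in limma). Its 3 tested probes ran from -0.003 to 0.22, and none was called. Because Tsc22d3 and Sgk1 are both known glucocorticoid targets, 11 further glucocorticoid targets were read. Of these 1 rose, Dusp1, a phosphatase of MAP kinases, at 0.41 ± 0.070 on the 3 arrays that gave a value (limma adjusted p = 0.0326). Replicate 5 was among these 3 arrays. With so few values, that call rests more on the prior variance of the fit than calls from 6 arrays do. The other 10 did not pass (list median 0.04), among them Zfp36 at 0.16, Mt1 at 0.18 and Nfkbia at 0.12. These were named for having the smallest p among them, and the list reached down to -0.08. Without replicate 5, Sesn3 was at 0.42, Arrdc3 at 0.54, Ccr7 at 0.93 and S1pr1 at 0.23, all still called, and Tsc22d1, at 0.20, was called too (adjusted p = 0.0412 in limma). Dusp1 gave no tested value without that array.

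**Figure D3:**
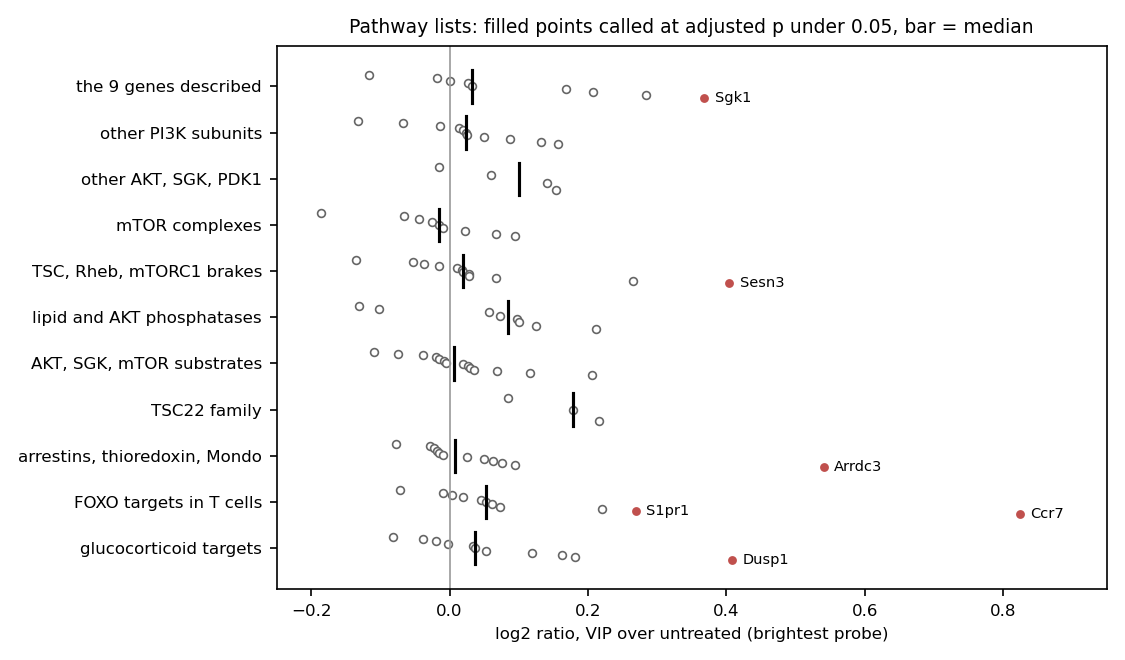
Log2 ratio of VIP over untreated for the brightest probe of each gene in the 9 genes described and in 10 lists of other pathway genes. Filled red points were called at an adjusted p under 0.05, open points were not, and bars are list medians; Sgk1, Sesn3, Arrdc3, S1pr1, Ccr7 and Dusp1 are the 6 called and all lie above 0.

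RefSeq promoter windows, from 250 bases before to 50 after a start site, were read for the genes whose probes were called and for Txnip, to show which recognition letters of cAMP-responsive and FOXO factors they hold. Windows were matched for all 9 genes, 23 in all. The letters of 5 motifs were searched on both strands. They were the palindromic cAMP response element (CRE) TGACGTCA, its core TGACG, which also lies inside the full element, the FOXO site GTAAACA, the E-box CACGTG and the GC box GGGCGG. No window of the 9 genes held the full CRE, which 1.79% of 32851 RefSeq windows hold. The CRE core was in 6 of the 23 windows (26.1%), of 5 genes, beside 20.8% of all windows, and the FOXO site in 2 of 23 (8.70%), those of Txnip and Akt1, beside 3.65% of all. The E-box was in 1 of 23 (4.35%) beside 7.15% of all, and the GC box in 10 of 23 (43.5%) beside 35.7%. These shares are close to those of all windows for the CRE core, and the counts are small. One window each of Tsc22d3, Sgk1 and Pik3r1 with a CRE core, and that of Txnip with a FOXO site, are printed on the gene's strand of GRCm38.p6, with the site in capitals.
Tsc22d3, chrX:140548522-140548821, minus strand: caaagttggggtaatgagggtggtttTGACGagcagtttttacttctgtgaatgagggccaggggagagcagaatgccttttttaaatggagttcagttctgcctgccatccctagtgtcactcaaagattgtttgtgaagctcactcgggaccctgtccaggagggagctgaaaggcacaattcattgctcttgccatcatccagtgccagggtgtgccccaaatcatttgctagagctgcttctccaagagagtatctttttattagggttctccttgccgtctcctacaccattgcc
Sgk1, chr10:21978422-21978721, plus strand: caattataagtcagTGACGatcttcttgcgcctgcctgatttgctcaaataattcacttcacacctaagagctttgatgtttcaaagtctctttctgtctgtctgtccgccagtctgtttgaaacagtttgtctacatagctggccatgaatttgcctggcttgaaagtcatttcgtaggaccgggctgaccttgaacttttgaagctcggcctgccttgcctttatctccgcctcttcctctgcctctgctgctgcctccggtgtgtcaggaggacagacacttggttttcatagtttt
Pik3r1, chr13:101692581-101692880, minus strand: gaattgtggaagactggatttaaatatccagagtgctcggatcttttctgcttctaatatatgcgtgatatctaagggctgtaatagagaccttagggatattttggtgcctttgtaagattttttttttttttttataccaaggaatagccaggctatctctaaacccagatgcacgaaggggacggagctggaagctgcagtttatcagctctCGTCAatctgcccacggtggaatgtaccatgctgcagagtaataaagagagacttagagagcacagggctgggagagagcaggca
Txnip, chr3:96557707-96558006, plus strand: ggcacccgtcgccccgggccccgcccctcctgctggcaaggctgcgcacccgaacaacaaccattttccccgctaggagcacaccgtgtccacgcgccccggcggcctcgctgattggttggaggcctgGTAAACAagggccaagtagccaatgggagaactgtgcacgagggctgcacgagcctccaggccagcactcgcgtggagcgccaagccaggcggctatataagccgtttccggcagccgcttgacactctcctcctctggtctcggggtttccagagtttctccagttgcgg
Counted from the start site, the CRE core begins at position -224 in Tsc22d3, at -236 in Sgk1 and at -35 in Pik3r1, where it reads CGTCA and is thus on the other strand. In Txnip the FOXO site begins at -121. These windows are 1 of 3 for Tsc22d3, 1 of 6 for Sgk1, 1 of 2 for Pik3r1 and the only one for Txnip. The arrays do not tell which start site was used, and a match is a description of the letters, not of binding.

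**Figure D4:**
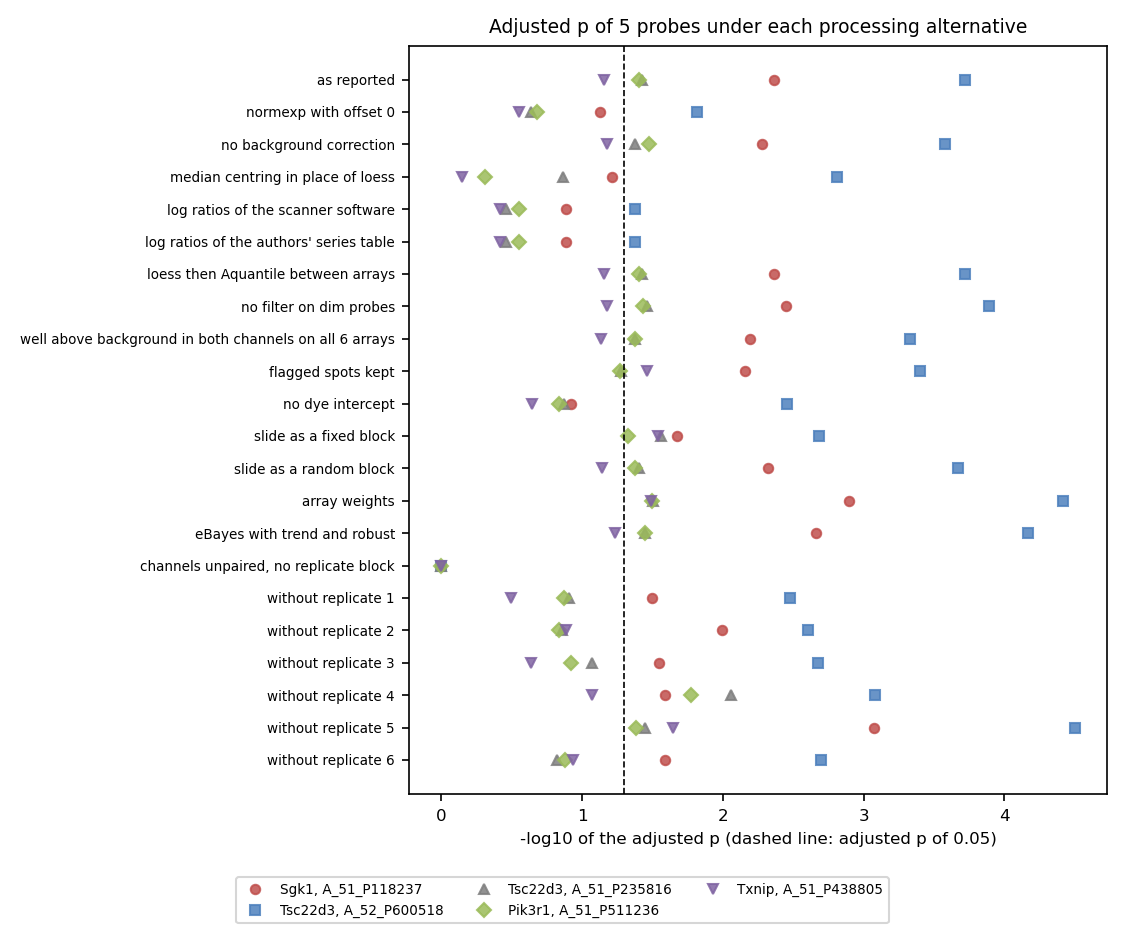
Minus log10 of the adjusted p for 5 probes, as reported and under 21 processing alternatives that tested all of them. Points right of the dashed line are called; Tsc22d3 A_52_P600518 is right of it in all but the fit with unpaired channels, Sgk1 is left of it in 6, and the other 3 probes cross it often.

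The plot of adjusted p by alternative shows how the called probes differ in firmness. Tsc22d3 A_52_P600518 was called in 20 of 21 alternatives, Sgk1 A_51_P118237 in 16 of 22, Tsc22d3 A_51_P235816 and Pik3r1 A_51_P511236 in 10 of 21 each, and Pik3r1 A_52_P407239 in 9 of 21. Txnip A_51_P438805, not called as reported, was called in 4 of 22. Not all alternatives are separate checks. Aquantile after loess leaves the ratios within arrays as they were and so repeats the reported fit. The scanner's and the authors' log ratios are equal but are counted as 2. The log2 ratio of each of these 6 probes kept its sign in every alternative run.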

How the data were processed

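Total RNA of 6 labelled biological replicates was measured on two-colour Agilent arrays, each with a VIP-treated and an untreated channel. Per the file headers, Agilent Feature Extraction 9.5.1.1 was used on the images, and the deposited scanner files give per spot the intensity, its local background, a log10 ratio of both dyes and quality flags, used as score values of 0 or 1. The authors' series table holds log10 ratios equal to the scanner's, turned to VIP over untreated. Both log ratios served as alternatives.

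Mean signals were corrected with normexp (offset 50) and normalized by loess within arrays in limma 3.58.1 under R 4.3.3. Control spots had no weight in the loess and were left out of the fit. Outlier-flagged spots entered the background correction and the loess and were left out afterwards. Spots of one probe were averaged. Levels are log2 intensities scaled further between arrays by Aquantile. Probes well above background on at least 3 arrays in 1 of both channels were tested. The log2 ratio was fitted with a VIP effect and a dye intercept (4 residual and 6.42 prior degrees of freedom), and a probe was called at a Benjamini-Hochberg adjusted p under 0.05 over all 33502 probes. Probes without a value on every array had fewer residual degrees of freedom. A gene was read from its brightest tested probe. The p-values cover only how these arrays vary, and their number limits the precision. The fit was checked on simulated data.

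The rule named every probe of the 9 genes, at most the 4 genes of smallest p per list, the 3 genes nearest to a called gene, and check markers. The genes, lists and tests were chosen with earlier results of these data known. Per the labels each array pairs both RNAs of 1 replicate, and ratios were taken within arrays. The RNAs of replicate 5 were unlike in sex-linked transcripts, so that its ratio may not be one within a pool of mice. Alternatives changed the normalization, the background correction, the flagged spots, the filter on dim probes, the dye and slide terms, weights, prior, probe rule, pairing, threshold and replicates. Counts over all probes of the 9 genes were added to them after seeing the data. Some results for single genes are left out of the text.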

Additional observations from a re-analysis of the deposited data

How the results depend on the processing

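The counts in this paragraph are calls higher and lower over all probes, then higher among the 22 probes, then among the 9 genes, beside 535, 180, 5 and 1 as reported. A normexp offset of 0 gave 107, 9, 1 and 0, median centring 173, 9, 1 and 0, and the log ratios of the scanner software, like those the authors deposited, 38 higher, 0 lower, 1 and 0. No dye intercept gave 227, 48, 1 and 0. Array weights gave 729 higher, 349 lower and 3 of the 9 genes higher. Slide as a fixed block gave 402 higher, 104 lower and 2 of the 9 higher. Flagged spots kept gave 469 higher, 130 lower, 3 of the 22 probes higher and 2 of the 9 genes higher. At an adjusted p under 0.01 there were 244, 42 and 2, and at 0.1 there were 749 higher, 367 lower and 3 of the 9 higher. With channels unpaired, that is with no replicate block, 3 probes were higher, 0 lower, and 0 of the 22 and 0 of the 9 were called. Leaving out 1 array gave 242 to 840 higher, 47 to 347 lower, 2 to 7 of the 22 and 1 to 3 of the 9; the highest of these were without replicate 5. None of the 22 was called lower in any of these. Of all calls 74.8% were higher as reported, 92.2% with the offset of 0, 95.1% with median centring, all 38 with the scanner's ratios and 67.6% with array weights. Pik3cd turned to 0.057 with median centring, and leaving out 1 array gave -0.043 to 0.014, above 0 without replicate 1 and without replicate 6. Tsc1 turned to -0.0037 with the offset of 0, to -0.0028 with both sets of deposited log ratios and leaving out 1 array gave -0.035 to 0.039, below 0 without replicate 1, 2, 3 or 4. The cause of these changes was not tested. The Sgk1 probe A_52_P352246 was near background, which limits its ratio.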
